A study of Mus musculus with 4 samples.

Results

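Among spleen cells of leukemia-bearing mice after allogeneic hematopoietic cell transplantation (allo-HCT), 264 cells carried RNA of the granule genes Mpo and Prtn3 and almost no RNA of T cells. They were selected on measured UMIs, as cells with at most 1 UMI of Cd3d, Cd3e and Cd3g together, at least 5 UMIs of Mpo, at least 5 UMIs of Prtn3 and fewer than 2 UMIs of Klf1, among cells with at least 500 genes, at least 1000 gene UMIs and at most 10% mitochondrial UMIs. A UMI, or unique molecular identifier, marks 1 captured RNA molecule. These Mpo+Prtn3+ cells made up 5.74% of the 4600 Cd3-low cells (at most 1 Cd3 UMI) and 2.27% of all 11632 cells that passed the filter. Since measured UMIs chose the cells, every difference between them and the other 4336 Cd3-low cells is given as a description with no test.

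Granulocyte-monocyte progenitors (GMPs) are bone marrow cells that give rise to neutrophils and monocytes, and to further granulocytes in part. They begin to fill primary granules with myeloperoxidase and with the serine proteases elastase, proteinase 3 and cathepsin G before either lineage is complete. After irradiation and stress, the mouse spleen is known as a site of blood formation outside the BM, where such progenitors can lodge beside erythroid precursors.

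All recipients were BALB/c mice that received lethal total body irradiation, 10000 WEHI-3B cells (a BALB/c myelomonocytic leukemia line) and donor BM, and 200000 donor spleen Tc on day 2. Donors carried the H-2Kb haplotype and were either Havcr2 fl/fl, the floxed control, or Havcr2 fl/fl;E8icre/+, in which a cre driven by a Cd8a enhancer is meant to delete Havcr2 (encoding TIM-3) in CD8+ cells. The cre is not aimed at myeloid cells, Cd8a was at 1.0 to 1.5 CPM (defined below) in the Mpo+Prtn3+ cells, and all donors carried the floxed allele. Spleens were taken on day 23. The labels name enrichment with a pan-Tc kit, whereas the study also describes a sort of donor Tc, and which step came before loading could not be settled here. Either step would limit which Cd3-low cells were loaded, so their shares are not shares of the spleen, and a sort on H-2Kb would also limit how many cells without the tag were loaded. The study states 2 mice for each genotype, and each was sequenced as 1 library of 10x Genomics 3′ RNA with an oligo-tagged Ab against H-2Kb.

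The labels call the samples T cells, whereas the choice of cells limited Cd3 RNA. The 8 T cell list genes besides Cd3d, Cd3e and Cd3g summed to 9.29, 8.05, 7.08 and 5.49 CPM (UMIs of a gene per 1000000 gene UMIs, pooled over all cells of 1 class within a library) in Havcr2 fl/fl;E8icre/+ replicates 1 and 2 and Havcr2 fl/fl replicates 1 and 2. Values of the 4 libraries follow in this order throughout. In Tc (at least 3 Cd3 UMIs) the same 8 genes summed to 4823, 5035, 4959 and 4340 CPM. The libraries held 38386626, 31449644, 17693991 and 55045903 gene UMIs. Mpo+Prtn3+ cells numbered 86, 62, 35 and 81 with 3015088, 2731320, 1977346 and 2004686 UMIs in sum, so Havcr2 fl/fl replicate 1 rested on the fewest cells. Their median depth was 32995, 43498.5, 55087 and 24522 UMIs per cell, against 4505.5, 5803.5, 6592 and 3013 for Tc. Of 17 barcodes found in more than 1 library, 1 belonged to a Mpo+Prtn3+ cell, and Scrublet called 2 of the 264 cells as doublets, both in Havcr2 fl/fl replicate 2.

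Mpo encodes myeloperoxidase, and Prtn3, Elane and Ctsg encode proteinase 3, neutrophil elastase and cathepsin G. Since Elane and Ctsg were high in every library beside the 2 genes that chose the cells, the 250 bases before their RefSeq start sites (GRCm38.p6, equal to mm10 in coordinates) are shown, with capitals marking matches on either strand to GAGGAA, a core recognized by PU.1, and AACNG, a core recognized by MYB. The genes and motifs to show were chosen after the sequences had been seen. The windows are chr11:87793534-87793783 on the plus strand for Mpo, chr10:79879417-79879666 and chr10:79886062-79886311 on the plus strand for Prtn3 and Elane, which lie side by side, and chr14:56102575-56102824 on the minus strand for Ctsg.
Mpo: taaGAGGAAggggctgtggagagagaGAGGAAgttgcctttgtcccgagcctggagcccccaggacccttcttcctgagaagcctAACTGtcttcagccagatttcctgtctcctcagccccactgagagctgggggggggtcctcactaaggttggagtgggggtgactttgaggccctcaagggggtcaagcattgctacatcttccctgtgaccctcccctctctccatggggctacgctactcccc
Prtn3: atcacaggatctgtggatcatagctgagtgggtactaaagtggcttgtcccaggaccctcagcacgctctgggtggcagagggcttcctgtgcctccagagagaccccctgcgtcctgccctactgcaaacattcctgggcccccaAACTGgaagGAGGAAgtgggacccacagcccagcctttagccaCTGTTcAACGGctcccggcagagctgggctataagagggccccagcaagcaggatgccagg
Elane: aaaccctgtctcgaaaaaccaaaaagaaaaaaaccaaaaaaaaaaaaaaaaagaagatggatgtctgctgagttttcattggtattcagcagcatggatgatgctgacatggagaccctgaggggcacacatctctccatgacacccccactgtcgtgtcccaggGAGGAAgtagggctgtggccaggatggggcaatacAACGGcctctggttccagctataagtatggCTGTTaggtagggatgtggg
Ctsg: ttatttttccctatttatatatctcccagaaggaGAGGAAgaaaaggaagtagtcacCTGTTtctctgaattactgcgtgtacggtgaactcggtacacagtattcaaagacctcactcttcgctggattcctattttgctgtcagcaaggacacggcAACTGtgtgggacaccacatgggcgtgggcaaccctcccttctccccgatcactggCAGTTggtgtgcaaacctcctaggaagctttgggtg
GAGGAA matched 2 times for Mpo, starting 247 and 224 bases before the start, and 1 time each for Prtn3, Elane and Ctsg, starting 95, 85 and 216 bases before it. AACNG matched 1, 3, 2 and 3 times for Mpo, Prtn3, Elane and Ctsg. These distances hold for the RefSeq starts only. GENCODE M21 begins Mpo at 87793581 and Elane at 79886247, inside their windows, and Prtn3 at 79874476, upstream of its window. By those positions, part of the Mpo and Elane windows lies within the gene. The motif TTNNGNAA, a core recognized by C/EBP factors, had no match in these 4 windows. Of 32851 RefSeq windows of 250 bases, 23.3% held GAGGAA, 74.2% AACNG and 36.8% TTNNGNAA, so a match is a description of letters and not a shown binding site.

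Primary granule genes beyond the 2 used for the selection were high in every library. Mpo itself ranged from 5 to 411 UMIs per cell with a median of 54, and Prtn3 from 5 to 566 with a median of 142, as the choice of cells required. Elane, which the choice did not use, stood at 2057, 2142, 2694 and 2362 CPM against 18.2, 13.1, 41.2 and 11.7 CPM in the other Cd3-low cells. The 2 sets did not overlap, and 95.1% of the Mpo+Prtn3+ cells held an Elane UMI. With only the other cells below 2 Klf1 UMIs as the reference, the log2 ratio of Elane was still 4.77 to 5.35. Tc of the same libraries, which should lack Elane, showed 15.2, 9.95, 93.8 and 24.8 CPM, a level of the same order as in the other Cd3-low cells.

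Ctsg was at 1742, 2031, 1969 and 2513 CPM against 246, 233, 126 and 88.8 CPM in the others, and Ms4a3, a membrane protein of granulocyte-monocyte precursors, at 626, 526, 724 and 895 CPM. The others were not alike for these genes. Those gated on the basophil and mast list (143 cells) held 5030 CPM of Ctsg and 861 CPM of Ms4a3, pooled over libraries, and against other cells below 2 Klf1 UMIs the lowest log2 ratio was 0.75 for Ctsg and 1.51 for Ms4a3. Prss57, a further granule protease, reached 90.9, 69.6, 109 and 85.3 CPM with at most 5.0 CPM in the others. Of the 10 primary granule genes besides Mpo and Prtn3, 9 were higher in the Mpo+Prtn3+ cells of every library, with a median log2 ratio of 2.83, against a median of 0.06 over the 9602 genes with a mean of 5 CPM or more in either class. Against other cells below 2 Klf1 UMIs, 8 of the 10 were higher in every library, with a median log2 ratio of 1.32. So were 4955 of the 9602 genes against that reference, and 1572 were lower. Against all other Cd3-low cells, 36.2% of the 9602 genes were higher and 25.4% lower in every library, and the list counts below are read beside these shares. The exception on the list was Lyz2, lysozyme, which stood at 1003 CPM against 1654 CPM in the others of Havcr2 fl/fl replicate 1.

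Of the 6 GMP list genes besides Mpo and Prtn3, 5 were higher in every library, and the exception was Kit, the stem cell factor receptor. Kit stood at 44.4, 33.7, 50.1 and 17.5 CPM against 65.7, 56.8, 52.4 and 35.2 CPM in the others, and 38.6% of the Mpo+Prtn3+ cells held a Kit UMI. Cd34, a surface marker of progenitors, was found in 44.7% of them. The other Cd3-low cells were mostly Klf1 cells of the erythroid lineage (2749 cells, 63.4%), which express Kit as well.

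**Figure D1:**
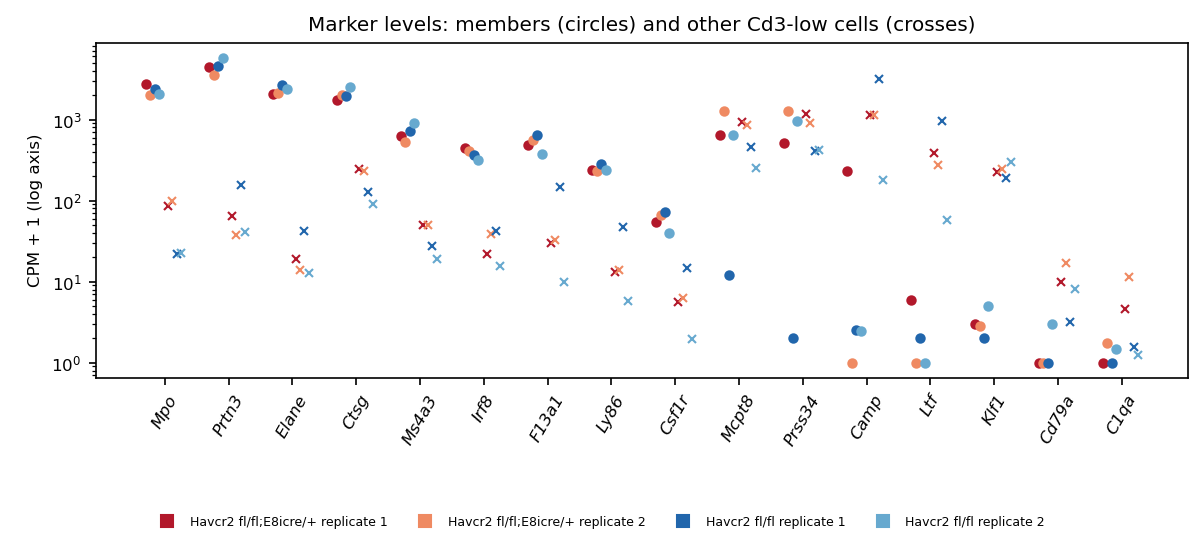
Levels of 16 marker genes in CPM + 1 on a log axis, for the Mpo+Prtn3+ cells (members, circles) and the other Cd3-low cells (crosses), with 1 symbol per library. Granule and monocyte branch genes from Mpo to Csf1r sit higher in the circles of every library, Mcpt8 and Prss34 are low in Havcr2 fl/fl replicate 1 only, and Ltf and Klf1 lie below the crosses.

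Beside granule genes, the cells carried the monocyte branch. Irf8, a transcription factor needed for the monocyte and dendritic fate, was at 440, 410, 364 and 319 CPM against 20.98, 37.4, 41.2 and 14.6 CPM in the others. F13a1, coagulation factor XIII subunit A, which monocytes make, reached 487, 561, 644 and 380 CPM, and Ly86 (MD-1, the partner of the Toll-like receptor homolog RP105) 237, 232, 280 and 235 CPM. The 4 libraries lay close together for Ly86, and none overlapped with the other Cd3-low cells, which had at most 46.6 CPM as a whole. The 46 of the others gated on Csf1r held more, with 361 CPM of Ly86 and 378 CPM of Irf8 pooled over libraries. Of 12 monocyte branch genes, 11 were higher in every library (median log2 ratio 3.20). Csf1r, the M-CSF receptor, was found in 64.4% of the cells and Ccr2, the receptor that brings monocytes out of the BM, in 74.2%.

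Early neutrophil genes were high and late ones low. Of 9 early neutrophil genes, 7 were higher in every library. Elane, Ctsg and Ms4a3 are among the 7 and also on the primary granule and GMP lists, so the counts of these lists are not separate. Gstm1 (a glutathione S-transferase) was at 248, 217, 370 and 191 CPM and Fcnb, ficolin B, at 30.5, 14.3, 22.8 and 7.0 CPM. Cebpe, which drives secondary granules, was at 45.8, 23.4, 31.4 and 23.9 CPM and was below the others in Havcr2 fl/fl replicate 1. Of 10 late neutrophil genes, none was higher and 9 were lower in every library, with a median log2 ratio of -6.21. Ltf, lactoferrin of the secondary granules, was at 5.0, 0.0, 1.0 and 0.0 CPM against 380, 274, 963 and 57.3 CPM. The summed late neutrophil list was 1816, 80.5, 189 and 166 CPM, with S100a8 most abundant, and in Havcr2 fl/fl;E8icre/+ replicate 1 Camp (231 CPM) and Ngp (204 CPM) stood apart from the 0.0 to 2.0 CPM of the other libraries.

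Erythroid RNA was lower in the cells than around them. All 11 erythroid genes were lower in every library (median log2 ratio -5.35), and the list summed to 941, 1858, 110 and 1012 CPM against 32494, 64473, 111270 and 29162 CPM in the others, with Hbb-bs most abundant in the Mpo+Prtn3+ cells. Klf1 was limited by the choice of cells, and 243 of 264 cells had no Klf1 UMI. The 5 genes with the largest deficit in their least favourable library, among abundant genes of the others, were Cldn13, Hemgn, Ermap, Ank1 and Aqp1. All are known from red cell precursors or their membrane. Ank1, the ankyrin of the red cell skeleton, was at 0.33, 1.1, 0 and 1.0 CPM against 131, 118, 132 and 118 CPM.

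The NK and dendritic lists were at or near 0, at most 1.496 CPM in any library, with Ncr1, Siglech and Cd209a at 0 UMIs in all Mpo+Prtn3+ cells. The macrophage list summed to 15.6, 21.6, 11.1 and 20.5 CPM, and to 18.1, 32.6, 20.96 and 3.31 CPM in the other Cd3-low cells, so the 2 sets overlapped. The B lineage list summed to 27.9, 18.7, 30.8 and 153 CPM, with Ms4a1 at 0. Cd79b, a chain of the B cell receptor complex, made up most of it outside Havcr2 fl/fl replicate 2, at 23.2, 15.01, 27.3 and 23.9 CPM. Jchain was at 102.8 CPM in Havcr2 fl/fl replicate 2 and at most 3.3 CPM in the other libraries, and 1 cell of replicate 2 held 8300 UMIs of Igkc, a light chain gene outside the list chosen after its values were seen. The part of this cell in the sum was not tested. The basophil and mast list summed to 1591, 3190, 14.7 and 2065 CPM and the eosinophil list to 653, 105, 0.0 and 25.9 CPM, with Havcr2 fl/fl replicate 1 lowest for both.

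The 20 genes with the largest excess in their lowest library, among genes with at least 100 CPM, were Elane, BC035044, Gstm1, Igfbp4, Ms4a3, Irf8, Ctsg, H2afy, Ramp1, Atp8b4, Pgam1, Glipr1, Fkbp1a, Clec12a, Ly86, Cst7, Plac8, Cmtm7, Rasgrp2 and Emb. Plac8, a small cysteine-rich protein of myeloid cells, was at 4887, 3702, 3716 and 4870 CPM. Igfbp4, which binds insulin-like growth factors, was at 196, 152, 188 and 168 CPM, and Pgam1, the phosphoglycerate mutase of glycolysis, at 660, 528, 667 and 835 CPM. Clec12a, an inhibitory lectin of myeloid cells, was at 202, 205, 253 and 166 CPM with at most 39.6 CPM in the others as a whole. Pooled over libraries it was at 340 CPM in those gated on the basophil and mast list and 199 CPM in those gated on the late neutrophil list, and its lowest log2 ratio against other cells below 2 Klf1 UMIs was 0.67. In those gated on the basophil and mast list, Plac8 was at 3637, Cmtm7 at 922, Cst7 at 288 and Atp8b4 at 251 CPM. Emb was at 638 CPM in those gated on Csf1r, against 513 to 574 CPM in the Mpo+Prtn3+ cells. Elane was lower than in the Mpo+Prtn3+ cells in both, at 40.9 and 310 CPM. Of the 20, Fkbp1a and Cst7, a cystatin, reached or passed the level of the Mpo+Prtn3+ cells in Tc of at least 1 library, at 174 to 194 and 181 to 236 CPM there. H2afy, Plac8, Emb, Rasgrp2, Glipr1 and Pgam1 were also found in Tc, at 259 to 283, 198 to 372, 103 to 245, 85.7 to 134, 93.4 to 105 and 116 to 149 CPM.

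Endoplasmic reticulum genes that fold secreted proteins were uniformly high. All 12 of them were higher in every library, with a median log2 ratio of 1.40. Calr, calreticulin, was at 1520, 1315, 965 and 1481 CPM against 632, 516, 353 and 536 CPM, and Hspa5 (BiP, the main chaperone there) at 999, 1016, 991 and 1360 CPM against 456, 497, 343 and 453 CPM. In all libraries the ranges were apart. By contrast, no gene of the interferon response list was higher in every library and 13 of 16 were lower (median log2 ratio -1.10). The reference cells were mostly Klf1 cells (63.4%), and this list against a reference without them is not given here. Isg15, a ubiquitin-like interferon product, was at 11.9, 46.5, 4.6 and 12.5 CPM against 299, 517, 498 and 190 CPM, and Igtp, an interferon-inducible GTPase, at 48.4, 48.0, 35.4 and 43.9 CPM against 253, 150, 147 and 203 CPM. Ifitm3 was the most abundant of the list and overlapped with the others, at 655, 632, 686 and 713 CPM.

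Of 15 cytokine receptor genes, 9 were higher and 3 lower in every library, beside 36.2% and 25.4% of the 9602 genes. Csf2ra, which binds GM-CSF, was at 118, 126, 92.5 and 95.3 CPM against 18.3, 20.04, 39.6 and 8.3 CPM, and Il6ra at 66.7, 61.1, 71.3 and 52.4 CPM against at most 30.1 CPM. Csf3r, the G-CSF receptor of the neutrophil lineage, was at 21.9, 15.4, 15.7 and 12.97 CPM and below the 37.4 CPM of the others in Havcr2 fl/fl replicate 1. Of 17 transcription factors, 10 were higher and 4 lower, read beside the same shares, with Cebpb the most abundant. Spi1, which encodes PU.1, was at 219, 245, 242 and 274 CPM against 34.8, 38.1, 110 and 12.9 CPM, and Gata1, the erythroid factor, at 7.0, 5.9, 0.0 and 7.5 CPM against 91.1 to 131 CPM.

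TIM-3 RNA was close to the limit of detection, with a Havcr2 UMI in 2 of 264 cells, both in Havcr2 fl/fl;E8icre/+ libraries. Of the TIM-3 ligands, Lgals9 (galectin-9) was lower in the Mpo+Prtn3+ cells of every library, at 122, 115, 65.2 and 94.8 CPM against 910, 556, 569 and 676 CPM. The reference cells were mostly Klf1 cells (63.4%), and Lgals9 against a reference without them is not given here. Ptdss1, which makes phosphatidylserine, was higher at 17.6, 15.0, 14.2 and 15.0 CPM against 15.8, 10.1, 9.8 and 10.8 CPM. Ceacam1 was at 15.0 to 15.7 CPM in all 4 libraries and did not stay on one side of the others.

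Cell cycle genes were expressed, at a lower level than in the erythroid cells. S phase genes took 23.8, 22.2, 22.6 and 23.0 of 10000 UMIs, against 31.9, 28.9, 30.6 and 37.9 in Klf1 cells and 15.8, 11.2, 11.9 and 19.8 in Tc. G2 and M phase genes took 30.5, 27.3, 23.2 and 27.5 of 10000 UMIs, against 41.1, 43.6, 47.2 and 47.1 in Klf1 cells. Mki67, a marker of cells in cycle, had a UMI in 96.2% of the Mpo+Prtn3+ cells at their median depth of 33521.5 UMIs.

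The cells were not of 1 kind. A set of 39 of 264 cells (14.8%) held 10 or more UMIs of the basophil and mast list (Mcpt8, Prss34, Cpa3, Fcer1a and Ms4a2), whereas 207 cells held 0 or 1. Mcpt8 and Prss34 encode proteases of basophils, and Fcer1a and Ms4a2 encode chains of the IgE receptor. The 39 cells came as 14 of 86, 13 of 62, 0 of 35 and 12 of 81, and a count of 0 of 35 allows a share of up to 8.57%. The shares of 16.3%, 20.97% and 14.8% had 95% Wilson intervals of 9.95 to 25.5%, 12.7 to 32.6% and 8.68 to 24.1%, which cover counting error only.

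The 2 sets differed in Irf8, Ly86, Gata2 and Elane. Of the 39 cells, 37 held fewer than 20 UMIs of the monocyte branch list, and of the other 225 cells, 219 held 20 or more. Pooled over libraries, Irf8 was at 47.9 CPM in the basophil and mast set and 427 CPM in the other 225 cells, and Ly86 at 15.2 and 268 CPM. Gata2, the factor of basophils, mast cells and early progenitors, went the other way, at 523 and 3.1 CPM, as did Cebpa at 166 and 47.3 CPM. Elane was lower like the monocyte genes, at 510 and 2457 CPM, whereas Ctsg was higher in the basophil and mast set, at 3481 and 1877 CPM, and Srgn, the proteoglycan core of granules, was at 4471 and 989 CPM. Mpo was at 2691 and 2290 CPM and Prtn3 at 943 and 4823 CPM, although both had chosen the cells. The median depth of the 39 cells was 22263 UMIs.

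**Figure D2:**
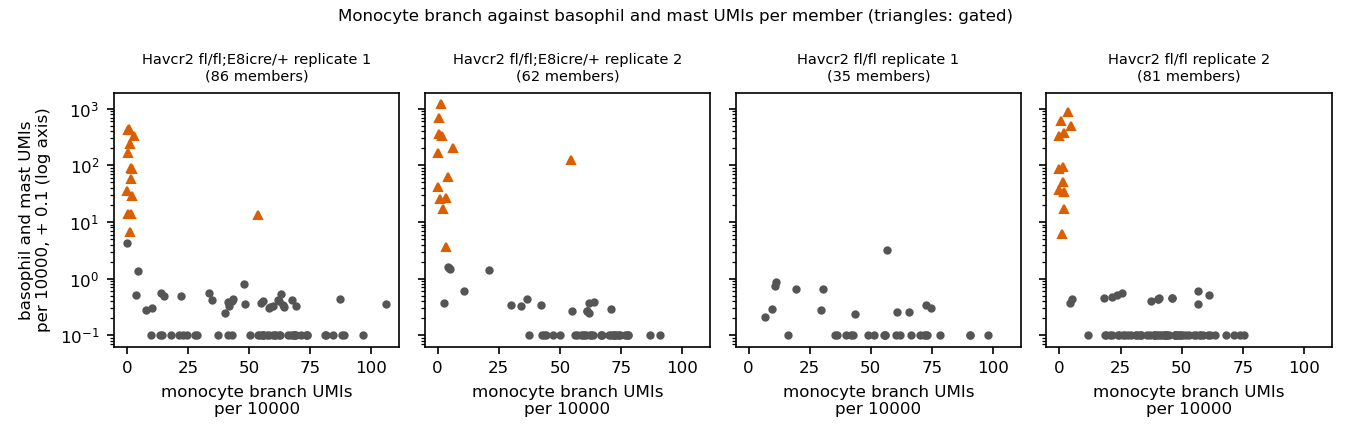
UMIs of the monocyte branch list (horizontal) and of the basophil and mast list plus 0.1 on a log axis (vertical), both per 10000 UMIs of the cell, for each Mpo+Prtn3+ cell of the 4 libraries. Orange triangles are the 39 cells with 10 or more basophil and mast UMIs, which lie at the left edge but for 2 cells, and Havcr2 fl/fl replicate 1 has none.

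The limit of the selection lay within this mixture. The 46 cells just inside the limit, with the lower of Mpo and Prtn3 at 5 to 9 UMIs, had a median of 82.5 monocyte branch UMIs, and 20 of them (43.5%) were in the basophil and mast set. The 93 cells just outside it, with the lower of both at 1 to 4 UMIs and the higher at 5 or more, had a median of 9 monocyte branch UMIs, and 51 of them (54.8%) had 10 or more basophil and mast UMIs. Of the 218 cells with 10 or more UMIs of both genes, 19 (8.72%) did.

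Among the 225 cells outside the basophil and mast set, Mpo, Elane and Prss57 were lower where monocyte branch RNA was higher and Lyz2, which is also on the primary granule list, ran the other way. The cells were ranked by their monocyte branch UMIs per 10000 UMIs into a low, a middle and a high group of 75 cells, a ranking chosen after the values were seen, with 91 cells within 10% of a limit. Of the libraries, 29.2%, 20.4%, 31.4% and 47.8% of the cells fell in the low group and 37.5%, 53.1%, 40.0% and 11.6% in the high group, so Havcr2 fl/fl replicate 2 had the fewest high cells. Median depth was 33529, 36059 and 38625 UMIs from low to high.

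Pooled Mpo was 4003, 1997 and 999 CPM in the low, middle and high group, Elane 3824, 2138 and 1507 CPM, and Prss57 176, 70.3 and 26.1 CPM. Each was higher in the low than in the high group in all 4 libraries. Progenitor genes had the same order. Kit was at 89.6, 14.7 and 5.87 CPM, Cd34 at 85.3, 15.3 and 6.52 CPM, and Myb, the factor of immature blood cells, at 363, 129 and 93.9 CPM. Gfi1, which represses monocyte genes in the neutrophil branch, was at 26.7, 2.05 and 1.30 CPM.

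The ranking itself fixed the order of the monocyte branch genes. Lyz2, Spi1 and Chil3, none of them in the ranking list, had the opposite order. Lyz2 was at 320, 739 and 2290 CPM, Spi1 at 192, 258 and 305 CPM, and Chil3, a chitinase-like protein counted here in the early neutrophil list, at 92.1, 378 and 941 CPM, each lower in the low than in the high group in all 4 libraries. Mki67 was at 349, 452 and 624 CPM, also in 4 of 4 libraries, so the high group held no less cycling RNA. Cebpa was level at 51.9, 38.9 and 51.2 CPM.

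**Figure D3:**
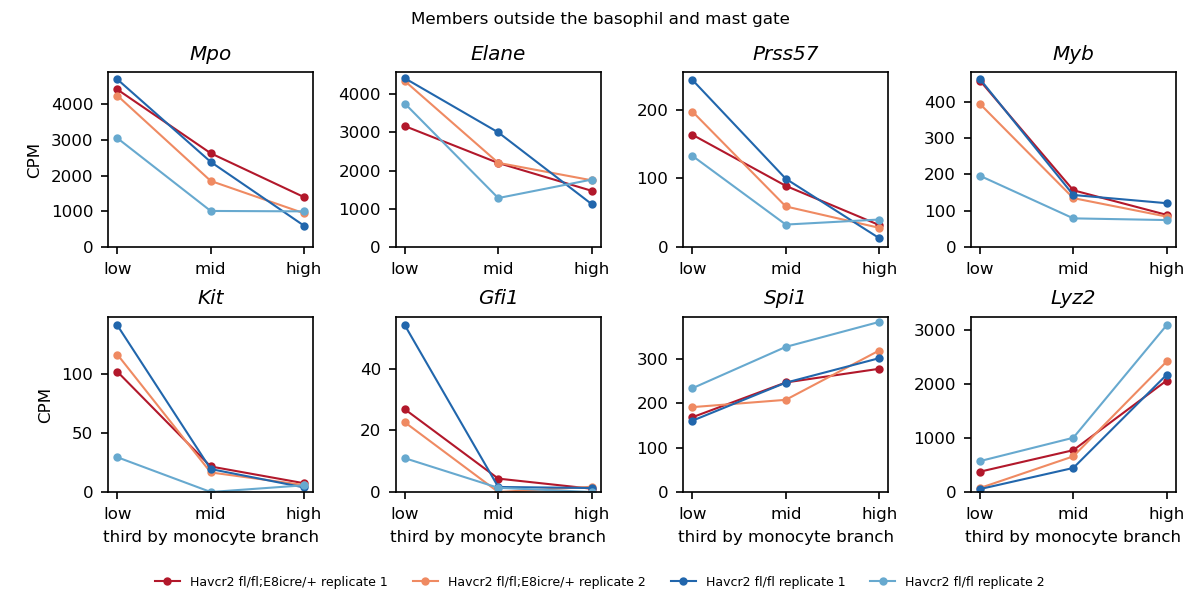
CPM of 8 genes in the low, middle and high groups of 75 cells by monocyte branch UMIs, among the 225 Mpo+Prtn3+ cells outside the basophil and mast set, with 1 line per library. Mpo, Elane, Prss57, Myb, Kit and Gfi1 are highest in the low group of every library, and Spi1 and Lyz2 are highest in the high group.

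The Ab tag was used to ask whether the cells came from the graft, since donors carry H-2Kb and both the recipients and WEHI-3B cells are of BALB/c origin and lack it. Median tag UMIs were 5017.5, 6387, 8518 and 3212 in the Mpo+Prtn3+ cells against 1597.5, 1971.5, 2445 and 1259 in Tc of the same libraries. Each library was higher, by 3.14, 3.24, 3.48 and 2.55 times. The mean log2 ratio was 1.62 ± 0.19 (SD, n = 4), with an exact two-sided p of 0.125 by sign flips over libraries, which is the smallest that 4 libraries can give. The Mpo+Prtn3+ cells also held more gene UMIs, and the tag per 10000 gene UMIs went the other way, at 1563, 1464, 1473 and 1357 against 3317, 3206, 3421 and 3788 in Tc (mean log2 ratio -1.23 ± 0.18, SD, n = 4, lower in 4 of 4 libraries).

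On raw tag UMIs none of the cells lay among those low for the tag, and no limit was set on the scale per 10000 gene UMIs. A cell was taken as low for the tag when it lay more than 3 median absolute deviations under its library's Tc on the log2 scale, at 379, 456, 461 and 218 UMIs. The lowest Mpo+Prtn3+ cell of each library had 2620, 2412, 4572 and 1005 tag UMIs, so 0 of 264 cells were low by this limit. By counting alone, 0 of 264 allows a share of up to 1.14%. The limits came from Tc of lower depth, so a deeper cell with the tag rate of a low cell could lie above them. The count of 0 therefore does not show the origin of the cells. Of the 264 cells, 263 had more tag UMIs than the median Tc of their library. The same libraries did hold 91 Cd3-low cells low for the tag, with a median of 277 tag UMIs. Per 10000 gene UMIs their medians were 374, 773, 677 and 487 tag UMIs in the 4 libraries. These had a median of 4536 gene UMIs, and 63 of them had 50 or more erythroid UMIs, 1 had 5 or more Mpo UMIs and 0 had 5 or more Prtn3 UMIs.

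Leukemia genes could not be used to tell the origin further. Il3 and Hoxb8, whose constitutive expression is known of WEHI-3B cells, had 0 UMIs in all 11632 cells, Tc included. The tag does not part WEHI-3B cells from recipient cells, as both lack H-2Kb.

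**Figure D4:**
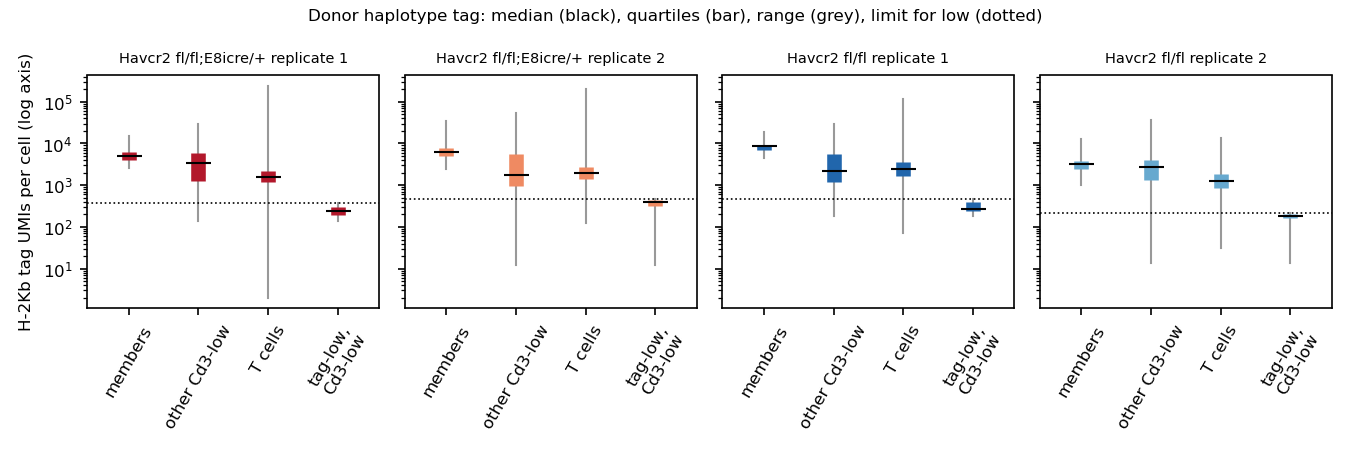
H-2Kb tag UMIs per cell on a log axis in each library for the Mpo+Prtn3+ cells (members), the other Cd3-low cells, Tc and the Cd3-low cells low for the tag, with the median as a black line, the quartiles as a bar and the range in grey. The dotted line is the limit for low, set on raw tag UMIs of Tc, which had lower depth. The Mpo+Prtn3+ cells lie above it in all 4 libraries, at 1005 UMIs or more.

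The share of Mpo+Prtn3+ cells among Cd3-low cells overlapped between genotypes. They made up 8.51, 8.60, 9.26 and 3.25% of Cd3-low cells, with 95% Wilson intervals of 6.95 to 10.4%, 6.77 to 10.9%, 6.73 to 12.6% and 2.62 to 4.02%. The means were 8.56 ± 0.06% in Havcr2 fl/fl;E8icre/+ and 6.26 ± 4.25% in Havcr2 fl/fl (SD, n = 2 each). An exact permutation test gave p = 1.0, two-sided, where 2 against 2 libraries cannot go below 0.333. The difference rested on Havcr2 fl/fl replicate 2, which held 1761 Klf1 cells against 515, 333 and 140 in the others. Without it, the log2 ratio of the means went from 0.45 to -0.11, and without Havcr2 fl/fl replicate 1 to 1.40. Of Cd3-low cells with Klf1 below 2, the share was 17.4, 16.0, 14.7 and 11.1%. Of all cells that passed the filter it was 2.51, 2.43, 2.89 and 1.83%, a log2 ratio of 0.07 with the genotypes overlapping (exact two-sided permutation p = 1.0). Of the Cd3-low cells below 2 Klf1 UMIs the genotypes did not overlap, with a log2 ratio of 0.37 and an exact two-sided permutation p of 0.333, the smallest possible.

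Between genotypes, 6 of 9315 genes tested in the Mpo+Prtn3+ cells were higher in Havcr2 fl/fl;E8icre/+ (0.0644%) and 0 were lower (edgeR quasi-likelihood test on summed UMIs, Benjamini-Hochberg adjusted p under 0.05). The 6 were the MHC class II genes Cd74 and H2-Eb1, and Xlr, Gm42031, Cryab and Rbm44. At an unadjusted p under 0.05 there were 507 genes (5.44%), and DESeq2 called 9 higher and 2 lower. The number depended on single libraries. It was 50 higher and 24 lower without Havcr2 fl/fl;E8icre/+ replicate 1, 36 and 18 without replicate 2, 7 and 13 without Havcr2 fl/fl replicate 1, and 66 and 12 without Havcr2 fl/fl replicate 2. These fits set 1 library against 2, so the lone library is assumed to vary like the other genotype, and their counts say little of stability.

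MHC class II molecules present peptides to CD4+ T cells, and myeloid progenitors are known to carry little of them. Cd74, the invariant chain, was at 216, 247, 60.7 and 57.7 CPM (here and below on TMM-scaled library sizes), a log2 fold change of 1.97 (SE 0.19, edgeR adjusted p = 0.00562). H2-Eb1 on chromosome 17 (34305867 to 34316674, GRCm38), which encodes the beta chain of I-E, was at 60.5, 64.7, 15.3 and 12.6 CPM, a log2 fold change of 2.16 (SE 0.21, edgeR adjusted p = 0.00562). For both genes the 2 Havcr2 fl/fl;E8icre/+ libraries lay above the 2 Havcr2 fl/fl libraries by more than replicates differed.

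The other class II genes of the MHC list lay the same way without passing the threshold. H2-Aa was at 112, 112, 43.4 and 23.3 CPM and H2-Ab1 at 110, 129, 48.0 and 53.6 CPM (edgeR adjusted p = 0.0703 for both). Ciita, the master activator of class II genes, was at 9.51, 6.12, 0.00 and 0.00 CPM (30, 16, 0 and 0 UMIs, edgeR adjusted p = 0.167). So all 5 class II genes had libraries of the genotypes apart in this direction, as did 19.5% of all genes tested (17.0% in the opposite one). Of the 6 class I genes of the list, 0 were called (edgeR, adjusted p under 0.05), 0 had an unadjusted p under 0.05 and their log2 fold changes ran from -0.11 to 0.35. The class II and class I parts of the list were separated after their values were seen.

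The class II difference was also seen in the low, middle and high group by monocyte branch RNA. The groups split the same cells in which these genes had been found to differ, so they add no separate support. In the low group Cd74 was at 128, 75.9, 47.3 and 30.7 CPM, in the middle group at 268, 213, 50.5 and 88.4 CPM, and in the high group at 333, 366, 77.8 and 57.1 CPM. The genotypes did not overlap in any group, also for H2-Eb1, H2-Aa, H2-Ab1 and Ciita, and Ciita was as low as 1.51 CPM against 0 in the middle group. Of the 9315 genes tested, 18.5, 15.6 and 17.3% had the genotypes apart in this direction in the low, middle and high group. In all 3 groups 113 (1.21%) did, and 0.913% in the opposite direction. These are shares of all genes, not of genes already apart in the cells as a whole. H2-DMb1, a class II peptide loading gene chosen after its values were seen, overlapped in the middle group. With each cell thinned to 10000 UMIs, 53.5, 48.4, 22.9 and 17.3% of the Mpo+Prtn3+ cells held 3 or more UMIs of Cd74, H2-Aa, H2-Ab1 and H2-Eb1 together. At least 1 UMI was held by 83.7, 79.0, 51.4 and 58.0% after thinning and by 95.3, 88.7, 85.7 and 72.8% before it, and by 20.7, 23.4, 18.2 and 23.0% of Tc at their lower depth, and mouse T cells are known to make little or none.

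**Figure D5:**
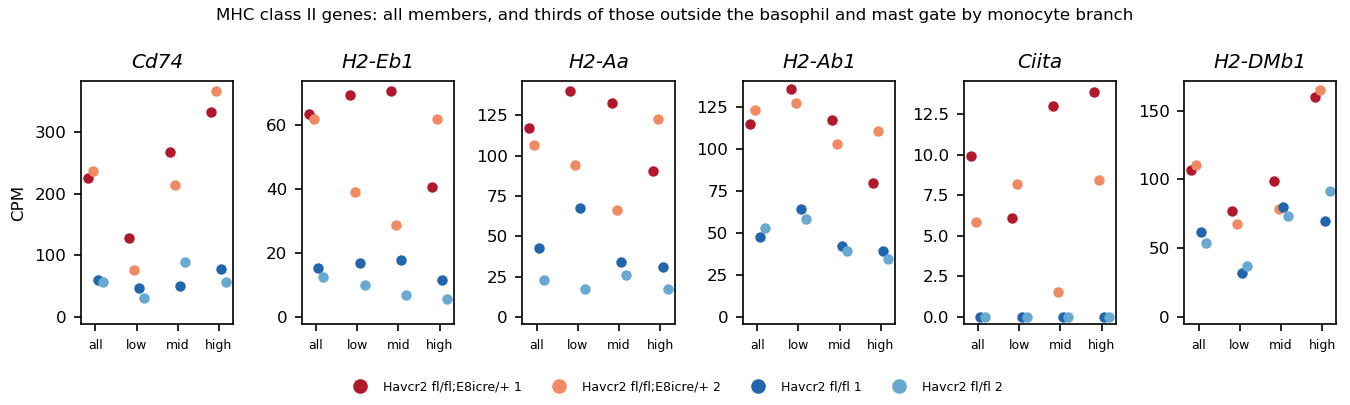
CPM (without TMM scaling) of 6 MHC class II genes in all Mpo+Prtn3+ cells and in the low, middle and high groups by monocyte branch, 1 point per library. The red and orange points of Havcr2 fl/fl;E8icre/+ lie above the blue points of Havcr2 fl/fl for each gene and group but for H2-DMb1 in the middle group.

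The other 4 genes were Xlr, a lymphocyte-regulated gene of the X chromosome (X, 53777118 to 53797706), Cryab, the small heat shock protein alpha B-crystallin (chromosome 9, 50751325 to 50756636), Rbm44, an RNA-binding protein gene (chromosome 1, 91145089 to 91170795), and the lincRNA gene Gm42031 (chromosome 8, 85125872 to 85132289). Xlr was at 74.5, 94.6, 0.0 and 0.0 CPM (235, 247, 0 and 0 UMIs, edgeR adjusted p = 0.000531). Gm42031 was at 70.7, 78.9, 14.8 and 10.6 CPM, a log2 fold change of 2.55 (SE 0.22, edgeR adjusted p = 0.00452). Cryab was at 23.4, 18.8, 0.0 and 0.0 CPM (74, 49, 0 and 0 UMIs, edgeR adjusted p = 0.00750). Rbm44 was at 11.4, 15.7, 0.0 and 0.0 CPM (36, 41, 0 and 0 UMIs, edgeR adjusted p = 0.0489). The Rbm44 call was lost in 3 of 15 alternatives, where its fitted log2 fold change stayed at 7.95 to 8.12. Xlr was also at 0 in both Havcr2 fl/fl libraries in Tc (17.4, 16.1, 0.0 and 0.0 CPM) and in the other Cd3-low cells (28.4, 41.5, 0.0 and 0.0 CPM). Rbm44 was at 9.76, 10.8, 0.00 and 0.05 CPM in the other Cd3-low cells, but overlapped in Tc at 4.34, 1.56, 0.00 and 2.08 CPM. Cryab in the other Cd3-low cells, at 1.90, 1.88, 1.79 and 0.00 CPM, had 1 Havcr2 fl/fl library near the Havcr2 fl/fl;E8icre/+ libraries, while in Tc it was at 2.47, 2.15, 0 and 0 CPM. Gm42031 had the genotypes apart in Tc (16.8, 17.6, 7.70 and 3.84 CPM) and in the other Cd3-low cells (6.51, 9.34, 4.69 and 1.03 CPM). With 2 mice of each donor genotype, the genotype and any other difference between the donors cannot be told apart.

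Outside these cells, Cd74 was at 249, 450, 250 and 227 CPM in the other Cd3-low cells and at 75.1, 88.4, 36.3 and 121 CPM in Tc, and the genotypes overlapped in both. The other 4 class II genes had the genotypes apart in the other Cd3-low cells too, in the same direction as in the Mpo+Prtn3+ cells, as did 18.7% of the 12040 genes tested there (4.04% in the opposite one). There H2-Eb1 was at 143, 161, 98.7 and 125 CPM, H2-Aa at 151, 169, 106 and 112 CPM, and H2-Ab1 at 222, 225, 136 and 206 CPM. Ciita was at 13.2, 13.7, 5.10 and 7.87 CPM. In the other Cd3-low cells 0 of 12040 genes were called (edgeR, adjusted p under 0.05), with 219 (1.82%) at an unadjusted p under 0.05. Whether the genotype difference itself differed between the classes was tested with an interaction term, blocked by mouse. It called 0 of 11247 genes (edgeR, adjusted p under 0.05), with 343 (3.05%) at an unadjusted p under 0.05, so the class II difference was not shown to be particular to the Mpo+Prtn3+ cells. The difference was larger in the Mpo+Prtn3+ cells by 1.60 on the log2 scale for Cd74 (SE 0.33), 1.84 for H2-Eb1 (SE 0.22), 1.38 for H2-Aa (SE 0.31) and 0.93 for H2-Ab1 (SE 0.15). The unadjusted edgeR p was 0.00544, 0.000599, 0.00841 and 0.00221, and 0.00797 for Ciita, and the adjusted p was 1 for all 5. Without Havcr2 fl/fl replicate 1 this test called 93 genes higher and 367 lower, and without Havcr2 fl/fl replicate 2 it called 530 and 56.

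The list counts between genotypes are read beside the shares over all genes, of which 0.0644% were called and 5.44% had an unadjusted p under 0.05. No gene of the primary granule (10 tested), early neutrophil (9), monocyte branch (11), cytokine receptor (12), endoplasmic reticulum folding (12), interferon response (13), S phase (16) or G2 and M phase (16) lists was called (edgeR, adjusted p under 0.05). Their median log2 fold changes were -0.15, -0.29, 0.07, 0.06, 0.01, 0.15, -0.01 and 0.10, beside 0.01 over all genes tested. Unadjusted p was under 0.05 for 1, 3, 1, 0, 0, 2, 0 and 1 of their genes. Lgals9 was at 117, 120, 65.8 and 96.1 CPM (edgeR adjusted p = 0.842). Of the lists of other lineages, also with 0 genes called (edgeR, adjusted p under 0.05), the eosinophil list had 2 genes tested, at log2 fold changes of 3.96 and 4.93, both at an unadjusted p under 0.05. Its sum was 653, 105, 0.0 and 25.9 CPM, and 3 of the 4 cells with 50 or more UMIs of the list were in Havcr2 fl/fl;E8icre/+ replicate 1. The late neutrophil list had 2 genes higher and 2 lower of 4 tested (log2 fold changes of -0.82 to 4.55), with 3 at an unadjusted p under 0.05, and its sum was highest in the same library. The erythroid list had a median log2 fold change of 1.20, with 0 of 8 genes at an unadjusted p under 0.05. The stem and multipotent progenitor list had a median of 0.36, with 2 of 10 genes at an unadjusted p under 0.05 and 5 apart and higher in Havcr2 fl/fl;E8icre/+, beside 5.44% and 19.5% of all genes tested. It includes Gata2, which the basophil and mast set held and which was at 71.3, 69.2, 0.51 and 50.9 CPM without TMM scaling. The basophil and mast list had a median log2 fold change of 1.49 with 0 of 5 genes called or at an unadjusted p under 0.05, and its sum was lowest in Havcr2 fl/fl replicate 1, at 14.7 CPM.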

How the data were processed

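The authors prepared 3′ libraries with Ab tags from 4 spleens and, per the labels, processed them with Cell Ranger 6.1.2 on mm10. The deposited values are raw UMI counts per cell for 32285 genes and 1 tag. GENCODE M21 (GRCm38), the source of positions, held 32158 (99.6%) of these genes.

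Cells were selected by the stated limits under Python 3.11.15 (scipy 1.17.1, numpy 2.4.6), and Scrublet was run through scanpy 1.11.5. UMIs were summed per library and class, passed through filterByExpr and compared by the quasi-likelihood test of edgeR 4.0.16 (TMM, Benjamini-Hochberg, threshold 0.05), which was also tried on simulated data. Alternatives were DESeq2 1.42.0, its size factors, no filter, a replicate block, stricter filters and thresholds, doublets removed, thinning, and each library left out. Removal of basophil and mast cells or of cells rich in another lineage's RNA was added after seeing the data. Ratios to other Cd3-low cells used log2(CPM + 1). Each SE of an edgeR log2 fold change was derived from its test, as the absolute log2 fold change over the square root of the F statistic.

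Members and lists were chosen with earlier results of these data known. Named are all genes called between genotypes, list genes, and the 20 highest and 5 lowest against other Cd3-low cells (by their least favourable library, at least 100 CPM). Genes outside this rule were chosen after their values were seen. Some list genes are not reported here. Promoter sequences are from RefSeq (GRCm38.p6). Figures used matplotlib 3.10.9.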

Additional observations from a re-analysis of the deposited data

How the results depend on the processing

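Counts of genes that differed between genotypes moved with the processing. Higher and lower calls were 6 and 0 as reported, 9 and 2 with DESeq2, 14 and 2 with no filter, 13 and 1 without Scrublet doublets, and 7 to 66 and 12 to 24 with 1 library left out. With alternatives added after seeing the data they were 8 and 2 without the basophil and mast set and 6 and 1 without cells rich in another lineage's RNA. The replicate block gave 11 and 2, but replicate numbers only name the samples (correlation of same-numbered deviations 0.0021 over 9315 genes). Cd74, H2-Eb1, Xlr, Gm42031 and Cryab stayed called in all 15 alternatives, 4 of which set 1 library against 2 and take the spread from the other genotype alone. Of the 15, 2 (at least 1000 genes per cell, and only cells not low for the tag) removed no cell and could not change a call. Rbm44 was lost in 3, namely without Havcr2 fl/fl replicate 1, at 5% mitochondrial UMIs and at 10 or more Mpo and Prtn3 UMIs. Its fitted log2 fold changes there were 8.12, 8.02 and 7.95, beside 8.04 as reported. H2-Aa was called in 9, H2-Ab1 in 8 and Ciita in 2 of the 15. The interaction called 0 to 530 genes higher and 0 to 367 lower with 1 library left out. The log2 ratio of the shares ranged from -0.11 to 1.40 with 1 library left out, and the tag ratio was -1.23 per 10000 gene UMIs. With other cells below 2 Klf1 UMIs as the reference, 4955 genes in place of 3476 were higher in every library, and 1572 in place of 2441 were lower. The cause of these moves was not tested. With 35 cells, Havcr2 fl/fl replicate 1 limits what can be said of rare members.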

Other observations

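Of the 264 Mpo+Prtn3+ cells, 15 held 50 or more UMIs of the list of another lineage. They were 6 cells rich in erythroid RNA, 4 in late neutrophil RNA, 4 in eosinophil RNA and 1 in B lineage RNA. The 4 eosinophil-rich cells, 3 and 1 in Havcr2 fl/fl;E8icre/+ replicates 1 and 2, were all in the basophil and mast set. Prg2, the eosinophil granule major basic protein, was at 576, 97.4, 0.0 and 20.95 CPM over all Mpo+Prtn3+ cells of the libraries. It had a UMI in 3.8% of them.

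Xist had 0 UMIs in the 264 cells, and 258 of them held a UMI of Ddx3y, Eif2s3y, Uty or Kdm5d. Kdm5d was at 4.3, 4.0, 14.7 and 11.97 CPM, with the genotypes apart, and Ddx3y at 61.0, 43.6, 32.4 and 54.9 CPM, with the genotypes overlapping. Eif2s3y was also apart, at 45.9, 51.3, 61.2 and 71.8 CPM with TMM scaling. Of 4 sex genes tested, 2 were apart and lower in Havcr2 fl/fl;E8icre/+, beside 17.0% of all genes tested. An unadjusted edgeR p was under 0.05 for 2 of them, beside 5.44% of all genes, and 0 were called.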
